A study of Mus musculus with 2 samples.

Results

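The genes described here encode the proteins of the cytoplasmic ribosome, as measured in long-term hematopoietic stem cells (LT-HSCs) of 2-year-old mice. A gene was a member if its name in the array files was Rpl or Rps followed by digits and at most 1 letter (a, l, x or y), or was Rplp0, Rplp1, Rplp2 or Rpsa. The rule itself uses names only and no measured values. It took in 80 of the 22553 genes named on the array, represented by 185 probes of 60 bases. Large-subunit genes numbered 48 and small-subunit genes 32. Tissue-restricted or otherwise specialised copies that fit the name (Rpl3l, Rpl10l, Rpl39l, Rps4l and Rps27l) are members too, and are kept apart below from the 75 genes of the ordinary ribosome.

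LT-HSCs were sorted from the bone marrow of C57BL/6J mice, and their RNA was hybridized with the dye Cy3 to 1 single-colour Agilent array per genotype. The array labelled p38KO came from CAG-CreERT2 mice homozygous for a floxed p38α gene. These mice received tamoxifen (TAM) at 50 to 60 weeks of age and were analysed 1 year later. The array labelled wild-type came from controls of the same age that also received TAM and, per the study's methods, carried the floxed gene without Cre. The CAG promoter is active in nearly all cells, so the deletion was not limited to blood cells. The labels give the sort as CD150+CD48-Flt3-CD34- LSK (lineage-negative, Sca-1-positive, c-Kit-positive), whereas the series description names only CD34 and Flt3 beside LSK, and the methods add CD41. The number of mice behind each array is not given in the sources used here. With 1 array per genotype there is no spread between mice, so all differences below compare 2 arrays and carry no p-value.

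A ribosome is built from ribosomal RNA and about one copy of each ribosomal protein, so the cell makes these proteins in matched amounts. Their mRNAs are among the most abundant of any cell. They typically begin with a run of pyrimidines, the 5′ terminal oligopyrimidine (TOP) motif, through which mTOR signalling controls their translation. Hematopoietic stem cells are known for a low rate of protein synthesis, and inherited loss of 1 copy of several of these genes causes Diamond-Blackfan anemia, a failure of red cell production.

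Levels are given as log2 signal minus the 75th percentile of the log2 signals of the same array, so that a level of 0 is that percentile of the array. A difference is always the level on the array labelled p38KO minus the level on the wild-type array. The brightest probe stood for a gene. The scanner software marked a probe as well above background in 37789 of 55662 cases (67.9%) on the wild-type array and in 38425 (69.0%) on the array labelled p38KO; such probes are called detected below. No spot was saturated. Among 298 repeatedly spotted probes detected on both arrays, the median SD between spots was 0.09 on the wild-type array and 0.10 on the array labelled p38KO, which gives an SD of 0.13 for a difference. That value covers only the error between spots of 1 array. Mapk14, the gene for p38α, had levels of 2.34 and 2.31 on its brightest probe and of 2.08 and 2.03 on its other probe. The targeted gene was thus nearly equal on both arrays. Which exons were deleted is not given in the sources used here, so whether these probes could show the deletion is unknown. The study tested the deletion in mice of this age by genomic PCR, which is not part of these files.

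The sequences behind several of the strongest differences, and behind probes that disagree, are the following 60-base probes, printed in lower case throughout because no part of a probe is singled out. They are named by gene and carry the array's coordinates in mouse build mm9.
Rpl7a (chr2:26766632-26766986, plus strand): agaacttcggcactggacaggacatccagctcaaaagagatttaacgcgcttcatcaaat
Rps15, brightest (chr10:79756716-79756775, plus strand): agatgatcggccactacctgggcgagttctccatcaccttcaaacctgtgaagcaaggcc
Rps15, other (chr10:79755554-79756394, plus strand): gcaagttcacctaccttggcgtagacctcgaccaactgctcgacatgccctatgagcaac
Rps27 (chr9:114891672-114891731, minus strand): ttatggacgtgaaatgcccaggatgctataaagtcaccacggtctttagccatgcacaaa
Rps19 (chr7:25670166-25670225, plus strand): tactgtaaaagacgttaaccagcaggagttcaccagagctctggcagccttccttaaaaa
Rps15a (chr7:125253453-125253512, minus strand): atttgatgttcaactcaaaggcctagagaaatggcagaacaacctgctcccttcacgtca
Rps2, brightest (chr17:42864841-42864900, plus strand): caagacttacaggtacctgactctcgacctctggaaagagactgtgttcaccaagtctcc
Rps2, other (chr17:24857583-24857642, plus strand): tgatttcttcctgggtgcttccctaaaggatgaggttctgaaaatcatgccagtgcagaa

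The Rpl7a and second Rps15 probes span 355 and 841 bases of the genome, more than their own 60, so each joins exons across at least 1 intron. Of the 79 brightest probes of measured members, 21 span a junction in this way. Ribosomal protein genes have many processed copies in the genome. Of the brightest probes, 4 carry array coordinates on another chromosome than the gene has in RefSeq (GRCm38.p6): those of Rpl13, Rps4x, Rps27 and Rps29. The Rps27 probe above lies on chromosome 9, and the gene on chromosome 3. Both Rps2 probes lie on chromosome 17, but far from each other. The start window of Rps2 (chr17:24720033-24720087, GRCm38.p6) lies near the other probe and far from the brightest, though the builds differ. That brightest probe, being on the gene's chromosome, is not among the 4 above. Signal from a gene and from a near-identical copy cannot be told apart on such probes.

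Most ribosomal protein genes were lower on the array labelled p38KO. Of the 80 members, 79 were detected on at least 1 array and 78 on both. Of these 79, 71 were lower (89.9%), where 52.4% of all 17190 measured genes were lower. The other 8 members were higher, against 47.6% of all genes. One of those, Rpl39l, entered through the array labelled p38KO alone and so could not have been lower. Over the 78 members detected on both arrays, 71 were lower and 7 higher. The median difference over the members was -0.28, a 1.21-fold lower signal, with quartiles of -0.42 and -0.20. Over all genes the median was -0.03 and the quartiles were -0.38 and 0.33. The members thus lay in a narrow band below 0, with a range between quartiles of 0.22. That range was 0.71 over all genes and 0.51 over the other genes in the top 5% by mean level. In bulk samples such as these, fewer cells of a type and less RNA per cell cannot be told apart.

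The differences were small for single genes. A signal lower by 1.5-fold or more was found for 6 members (7.59%), a smaller share than the 15.6% of all genes. One higher by 1.5-fold or more was found for 2 members (2.53%), compared with 12.7% of all genes. At 2-fold, 0 members were lower and 1, Rpl39l, was higher, where 6.71% of all genes were lower and 4.1% higher. Among the 75 genes of the ordinary ribosome, 71 were lower and 4 higher, with a median of -0.30 and an SD of 0.22 across genes. Of those 75, 63 were lower by more than the SD of 0.13 between repeated spots, and 2 (Rps15a and Rps3) were higher by more than it. Over all genes these shares were 42.3% and 37.8%.

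**Figure D1:**
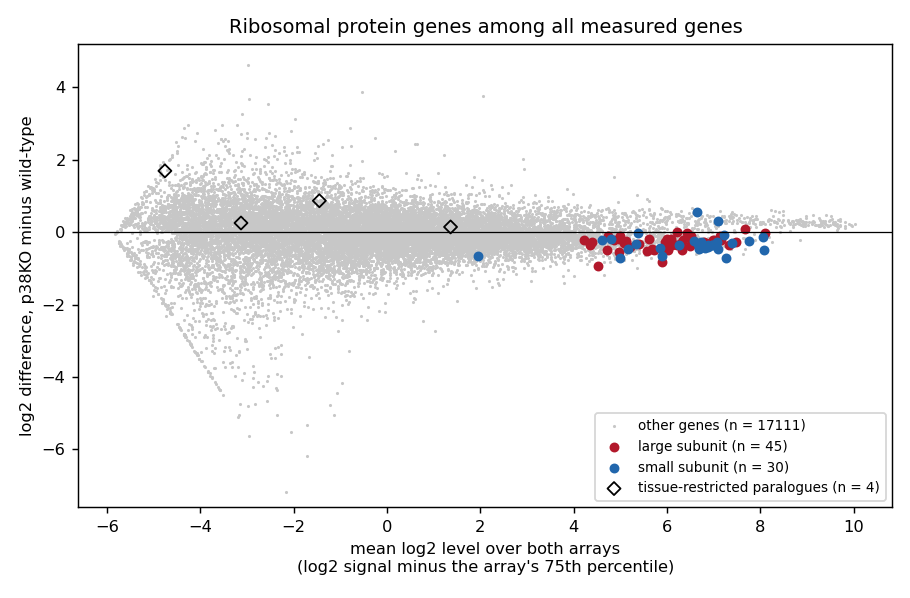
Difference between the arrays (p38KO minus wild-type, log2) against the mean log2 level for all measured genes, with 1 point per gene and members in colour. The ordinary ribosomal protein genes form a cluster at the bright end, mostly below 0, while the 4 measured paralogues lie above 0 at lower levels.

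Other bright genes did not share this difference. By mean level, 71 of the 79 members fell in the top 5% of genes. The other 789 genes of that top 5% had a median difference of 0.09, and 42.6% of them were lower on the array labelled p38KO. Lower by 1.5-fold or more were 2.66% of these other bright genes and 7.04% of the 71 members there. Higher by that much were 3.17% of the other bright genes and 0% of the 71 members. For those other bright genes the median was -0.07 when the mean or the median of a gene's probes was used instead of the brightest, so their sign depended on that choice. Over the members the median stayed between -0.38 and -0.22 in all 11 alternative settings, though several of these could hardly move it. Summed over the 75 ordinary genes, signal in units of the 75th percentile was 7406 on the wild-type array and 6153 on the array labelled p38KO, a ratio of 0.83. The other bright genes together gave a ratio of 1.13.

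Both subunits were lower. The large subunit (45 ordinary genes, 43 of them lower) had a median difference of -0.27, and the small subunit (30 genes, 28 lower) of -0.35. Quartiles were -0.37 and -0.20 for the large subunit and -0.45 and -0.24 for the small one, so the distributions overlapped over most of their range. The small-subunit median was the lower one in all settings tried.

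**Figure D2:**
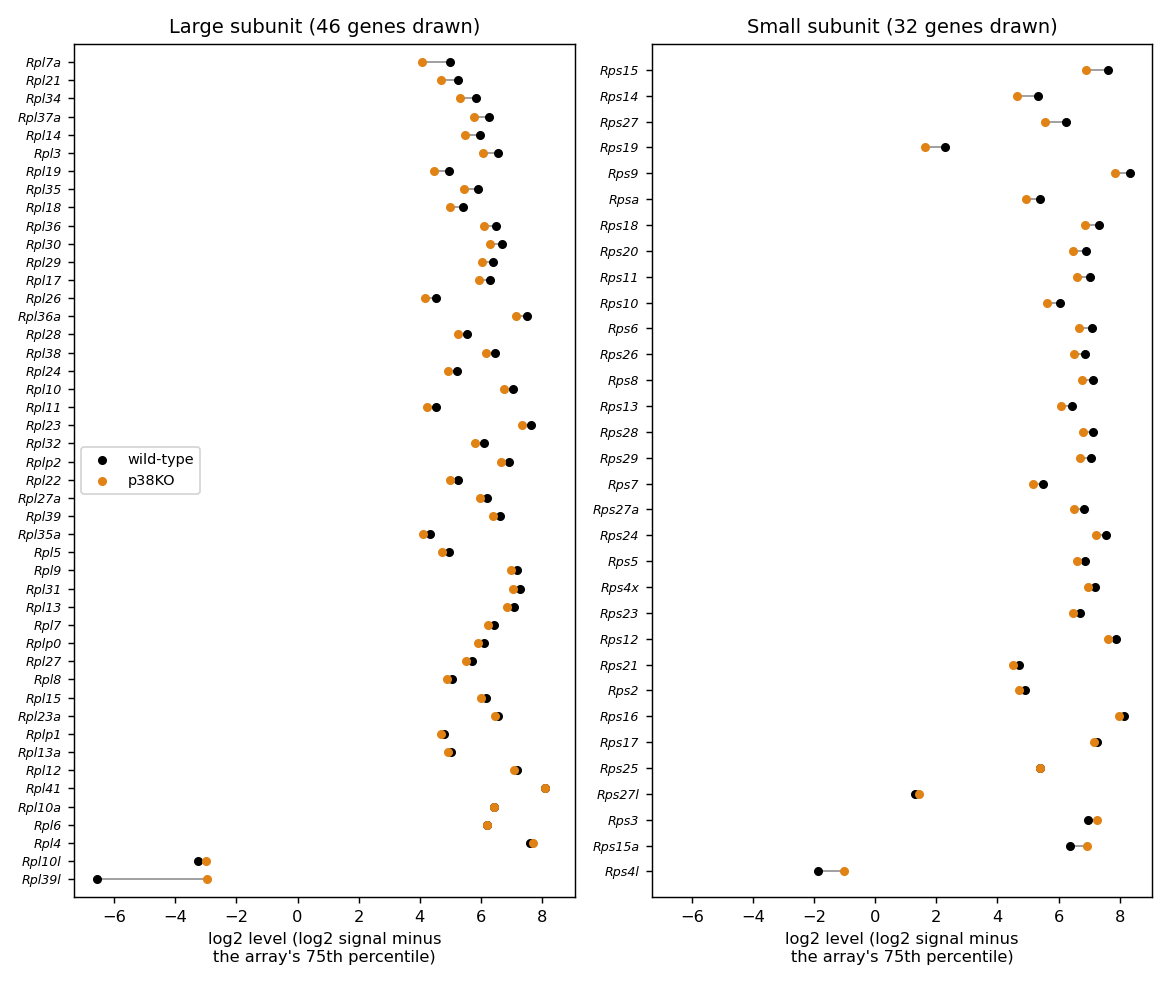
Log2 level of each measured member on the wild-type array (black) and on the array labelled p38KO (orange), by subunit and ordered from the lowest difference at the top to the highest at the bottom. A line joins the 2 arrays, and 1 large-subunit member is not drawn; Rpl39l was not detected on the wild-type array.

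The member furthest below 0 was Rpl7a, a large-subunit protein, with levels of 4.99 on the wild-type array and 4.07 on the array labelled p38KO. Its difference was -0.92, a 1.89-fold lower signal. That place rests on 1 probe: with the mean or the median of its probes Rpl7a differed by -0.31 or -0.20, whereas Rps15 (-0.83 with either) and Rps2 (-0.82) were lower. For Rps15, which sits in the head of the small subunit, the levels were 7.63 and 6.91. The difference for Rps15 was -0.72 on this probe and -0.94 on the junction probe printed above. Both probes of Rps15 were thus lower.

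Rps14, whose loss of 1 copy underlies the anemia of the human 5q- syndrome, had levels of 5.33 and 4.64 and a difference of -0.70. Rps27 had levels of 6.23 and 5.57, a difference of -0.67, and its other 3 probes gave -0.54 to -0.39. Rps19, the gene most often mutated in Diamond-Blackfan anemia, had levels of 2.28 and 1.63 and a difference of -0.65. Its single probe was the dimmest among the ordinary genes, at the 90.1 percentile of all probes on the wild-type array, whereas the median ordinary member stood at the 99.0 percentile. Probes differ in how well they hybridize, so this rank is not a rank of mRNA amount.

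At the other end, Rps15a of the small subunit had levels of 6.37 and 6.93, a difference of 0.56. Rps3, which lines the mRNA entry site and also has roles in DNA repair, had levels of 6.95 and 7.26, a difference of 0.30. Rpl4, which lines the exit tunnel, differed by 0.09, and Rpl6 by 0.00. These 4 are the only ordinary members that were not lower, and each was below 0 in some setting or on some probe. Rps15a and Rps3 were below 0 with the median of their probes and Rpl4 with quantile normalization or normexp, and Rpl6 has probes on both sides of 0.

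The brightest members showed no single size of difference. Rpl41, the smallest ribosomal protein, had levels of 8.12 and 8.09, and Rps9 of 8.33 and 7.83. Rps16 had levels of 8.14 and 7.99, and Rps12 of 7.87 and 7.63. The differences of these 4 were -0.03, -0.50, -0.15 and -0.24. At the dim end of the ordinary genes, next to Rps19, Rpl35a had levels of 4.32 and 4.10. Across the 75 ordinary genes Spearman's rho between mean level and difference was 0.20, and between the GC content of the probe and the difference -0.27. These rho values run across genes measured on the same pair of arrays and are descriptions only. The order of the members by level was nearly the same on both arrays (rho 0.97).

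The parts of the ribosome with a defined role followed the group. All 3 proteins of the P stalk, which recruits the elongation factors, were lower: Rplp0 by levels of 6.11 and 5.91, Rplp1 by 4.79 and 4.69, and Rplp2 by 6.92 and 6.65. With quantile normalization Rplp1 turned to 0.03. Rpl5 and Rpl11 join the 5S ribosomal RNA and, when free of the ribosome, bind Mdm2 and stabilise p53. Rpl5 had levels of 4.97 and 4.75, and Rpl11 of 4.53 and 4.25, so both were lower, by differences of -0.22 and -0.28.

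Rps6, the substrate of the S6 kinases, had levels of 7.09 and 6.67, a difference of -0.42. Rps27a, which is made as a fusion with ubiquitin, had levels of 6.83 and 6.50 on its brightest probe. A second Rps27a probe, nearly as bright, had 6.26 and 6.49, so the direction for this gene depended on the probe. The 4 X-linked members (Rpl10, Rpl36a, Rpl39 and Rps4x) were all lower in every setting, with differences of -0.29, -0.34, -0.23 and -0.26. By RefSeq the 80 members lie on 19 chromosomes, with 14 of them on chromosome 7 and 7 on each of chromosomes 9, 11 and 17.

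Of 20 members known to be mutated in Diamond-Blackfan anemia, 19 were lower (95%, beside 94.7% of the 75 ordinary genes). Their median was -0.33, and the one that was higher was Rps15a. That median stood close to the -0.30 of the 75 ordinary genes.

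The specialised copies were not lower. Rpl39l, a testis-enriched copy of Rpl39, was not detected on the wild-type array (level -6.57) and was at -2.96 on the array labelled p38KO. Taking the lowest detected signal of the wild-type array as its ceiling there, it was at least 3.24-fold higher. Rps4l had levels of -1.89 and -1.02, a difference of 0.87. Rpl10l, a testis-enriched copy of Rpl10, had levels of -3.26 and -3.00, and Rps27l, a p53 target, had 1.29 and 1.43. Rpl3l, a copy found in striated muscle, was detected on neither array. The 3 copies detected on both arrays were thus higher, and Rpl39l could only be counted as higher. Their sizes depended on the processing. With normexp background correction Rps4l differed by 0.51 and Rpl39l by 0.46, and with the mean or median of its probes Rpl10l differed by 0.06.

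Single probes were compared within each gene, since this is the check within an array that the design allows. Of 185 probes, 182 were detected on both arrays, and 167 of those (91.8%) were lower on the array labelled p38KO, compared with 50.3% of all 35798 such probes. Of 59 members with at least 2 such probes, 49 had all of them below 0, 10 had probes on both sides, and 0 had all above 0. The same shares over all genes with at least 2 such probes are not given here, so these counts have no comparison. The median range over the probes of a gene was 0.18.

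**Figure D3:**
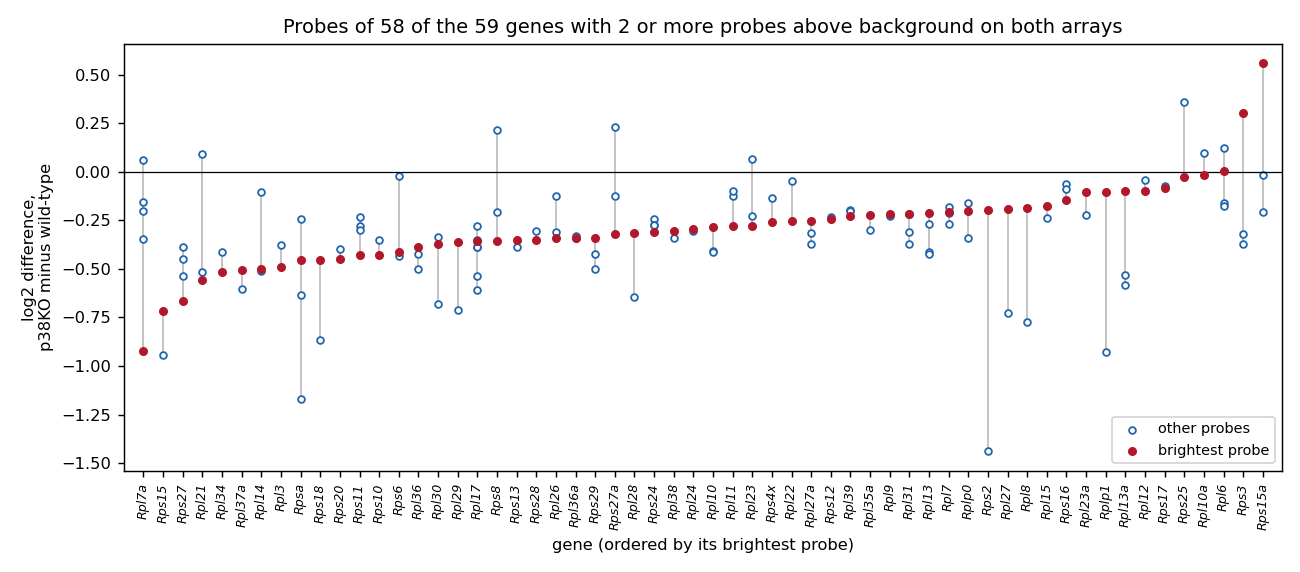
Log2 difference of every probe detected on both arrays, for the 59 members with at least 2 such probes, ordered by the brightest probe (red); blue rings are the other probes and a grey line spans each gene. Most genes hold all their probes below 0, and Rps2, Rpl7a, Rpsa and Rplp1 are among those with the widest ranges. 1 of the 59 is not drawn.

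The widest range was that of Rps2, whose brightest probe had levels of 4.90 and 4.70 and whose other probe had 3.39 and 1.96. The 2 Rps2 probes printed above therefore gave differences of -0.20 and -1.44. For Rpl7a the 5 probes ran from -0.92 to 0.06, and the lowest value came from the brightest probe, which joins exons. Another pair of Rpl7a probes carries the same coordinates but differs in 6 of 60 bases, and their differences were -0.16 and -0.20. Rpsa, also known as the laminin receptor, ranged from -1.17 to -0.24. Rplp1 had -0.93 on a probe with levels of 4.10 and 3.17, beside -0.10 on its brightest.

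Rps15a and Rps3, the ordinary members furthest above 0, were higher only on their brightest probe. The other 2 probes of Rps15a gave -0.21 and -0.02, and those of Rps3 gave -0.37 and -0.32. Only 1 member probe was spotted repeatedly, a dimmer probe of Rpl23 with 10 spots per array. Its levels were 2.75 ± 0.22 on the wild-type array and 2.81 ± 0.20 on the array labelled p38KO (SD over 10 spots), a difference within the spread of its spots. The brightest Rpl23 probe had levels of 7.63 and 7.35. Junction-spanning brightest probes had a median difference of -0.35 and the others of -0.27, and the 4 with coordinates on another chromosome had one of -0.30, so all 3 medians were below 0.

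Start sites were examined for what the members share in sequence. RefSeq start-site sequences of 300 bases (250 before and 50 after the start, GRCm38.p6) were at hand for 59 of the 80 members, with 71 starts. A run of at least 8 pyrimidines beginning within 25 bases of the start, on the strand of the gene, was present at 37 of the 71 starts (52.1%) at 20.2% of all 32851 starts in the table and at 19.8% of the 21263 starts of protein-coding genes. Windows from 30 bases before to 25 bases after the start are shown for members named above, in GRCm38.p6, with the longest such run in capitals.
Rpl7a (chr2:26910777-26910831, plus strand): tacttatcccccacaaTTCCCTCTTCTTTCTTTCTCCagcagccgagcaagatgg
Rps27 (chr3:90213624-90213678, minus strand): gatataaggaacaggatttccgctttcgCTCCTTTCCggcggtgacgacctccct
Rps6 (chr4:86857343-86857397, minus strand): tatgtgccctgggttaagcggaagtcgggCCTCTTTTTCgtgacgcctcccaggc
Rps15a (chr7:118116123-118116177, minus strand): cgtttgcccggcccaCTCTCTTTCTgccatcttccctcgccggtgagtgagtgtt
Rpl4 (chr9:64173357-64173411, plus strand): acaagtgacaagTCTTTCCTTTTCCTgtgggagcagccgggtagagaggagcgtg
Rps15 (chr10:80292401-80292455, plus strand): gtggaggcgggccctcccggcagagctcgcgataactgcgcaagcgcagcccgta

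In Rpl7a the run is 21 bases long. Rps15a and Rpl4, which were not lower, carry a run as well, whereas Rps15, among the lowest, holds none in this window. Among 55 ordinary members with a start in the table, the 34 with a run had a median difference of -0.31 and the 21 without had one of -0.25. Whether these 2 medians differ beyond the spread across genes was not tested.

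Other motifs were searched on both strands of the 300 bases. CCGGAAG, the core bound by GABP and other ETS factors, was found at 35.2% of the members' starts, at 8.86% of all and at 11.6% of those of protein-coding genes. GGGCGG, the Sp1 core, was found at 57.7%, 35.7% and 46.2% in the same order. AAGATGGC, the core of the YY1 site, was found at 9.86%, 2.75% and 3.05%. The TATA box (TATAAA, strand of the gene only) was found at 7.04%, 8.32% and 8.26%. Members with and without the GABP core had medians of -0.29 and -0.26, and those with and without the Sp1 core of -0.25 and -0.31. A match is a string of letters in a window and says nothing on binding in these cells.

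Other genes of the translation apparatus were lower too, though not all to the same extent. Of 25 other TOP and elongation genes, whose names include both symbols of Rack1, 24 were measured. Of these, 21 were lower (87.5%, beside 52.4% of all genes), with a median of -0.23. Eif3f and Eif4b, which serve initiation, had levels of 3.34 and 2.63 and of 5.23 and 4.70. Eef1g, a subunit of the elongation factor 1 complex, had 5.55 and 5.04. At the upper end stood Eif3a with 0.71 and 0.72, Pabpc4 with 3.32 and 3.47, and Gas5, a TOP transcript that hosts small nucleolar RNAs and encodes no protein, with 5.33 and 5.53. With quantile normalization or the loess between the arrays 19 of the 24 were below 0.

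Ribosome biogenesis genes, which process ribosomal RNA and assemble the subunits, had a smaller shift. Of the 78 measured, 58 were lower (74.4%, beside 52.4% of all genes), with a median of -0.09. With the loess the count was 44, where 52.9% of all genes were lower. With quantile normalization the count was 47, where 50.6% of all genes were lower. The lowest were Utp14a with levels of 0.04 and -1.27, Wdr74 with 0.11 and -1.13, and Riok1 with -0.63 and -1.65. The highest were Noc3l with 2.50 and 3.16, Pno1 with -0.63 and 0.05, and Brix1 with 2.20 and 2.93. Lower by 1.5-fold or more were 11 genes (14.1%) and higher by that much 3 (3.85%), beside 15.6% and 12.7% of all genes.

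Mitochondrial ribosomal protein genes, which encode the separate ribosome of mitochondria, were also lower in most cases. Of 78, 58 were lower (74.4%, beside 52.4% of all genes), with a median of -0.20 and quartiles of -0.40 and -0.01. That list was added after the values of the members had been seen. A list of 28 genes, most of them regulators of the members or of their translation, included Trp53, Mdm2 and Mapk14. Of these 28, 20 were lower (71.4%, beside 52.4% of all genes), with a median of -0.15. Mapk14, the targeted gene, counted among the 20 with a difference of -0.04. Zbtb7a had levels of 2.16 and 1.24, Trp53 of 2.96 and 2.44, and Mycn of 6.15 and 5.64. Mapkapk2 had -2.51 and -2.21, Tsc2 -1.06 and -0.56, and Mknk1 -2.22 and -1.23, and these 3 were the highest.

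**Figure D4:**
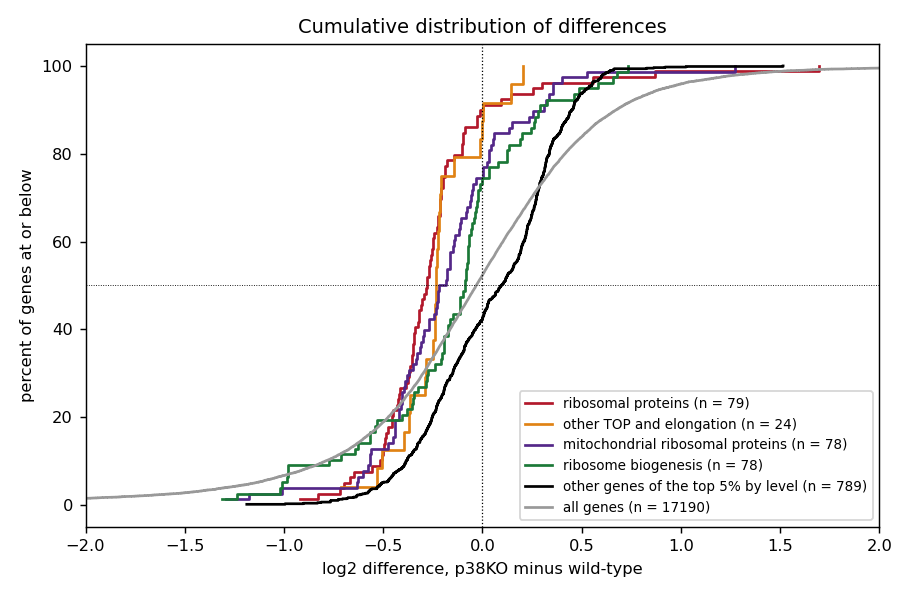
Percent of genes at or below each log2 difference (p38KO minus wild-type) for the members, related lists, the other genes in the top 5% by level and all genes. The members and the other TOP genes cross 50% at -0.28 and -0.23, mitochondrial ribosomal proteins at -0.20, ribosome biogenesis genes at -0.09 and the other bright genes at 0.09.

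Markers of other cells moved between the same 2 arrays. Of 7 granulocyte genes 6 were higher on the array labelled p38KO (85.7%, beside 47.6% of all genes). Elane, with levels of -0.15 and -1.57, was lower. The summed signal of the 7, in units of the 75th percentile, was 6.89 on the wild-type array and 21.3 on the array labelled p38KO. S100a9, with levels of 1.91 and 3.92, made up most of both sums. Of 7 B and plasma cell genes, the 5 detected on both arrays were all higher, beside 47.6% of all genes. Ebf1 and Ms4a1 were detected on the array labelled p38KO only. The sums over all 7 were 2.65 and 17.5. Jchain, a plasma cell gene with levels of 0.18 and 3.93, carried that change, and without it the sums were 1.52 and 2.26. Of 4 measured T and NK cell genes 3 were higher (75%, beside 47.6% of all genes), with sums of 13.7 and 17.1. Nkg7, with levels of 3.54 and 3.86, made up most of these 2 sums. Of 5 measured erythroid genes 2 were higher (40%, beside 47.6% of all genes), with sums of 72.9 and 59.2. Car2, with levels of 6.12 and 5.81, made up most of the erythroid sums. Of 5 megakaryocyte genes 2 were higher as well (40%), with sums of 97.1 and 85.4. Cd3d and Cd3g of the T cell list were detected on neither array.

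Of 10 genes that mark the gate or identity of LT-HSCs, all 10 were detected on both arrays. On the array labelled p38KO 9 of them were lower (90%, beside 52.4% of all genes), with a median of -0.66 and sums of 140.0 and 111.4. Of the 4 genes that mark cells outside the gate, Cd48 had levels of -2.06 and -0.69, and Flt3 of -2.31 and -1.95, whereas Cd34 and Itga2b were lower. The part of these cells in the difference of the ribosomal protein genes was not tested.

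**Figure D5:**
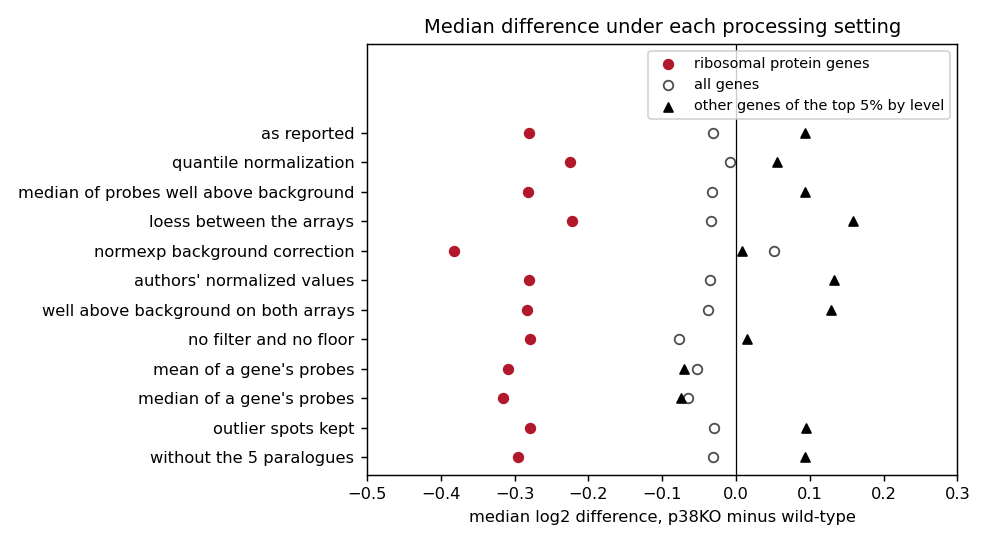
Median log2 difference (p38KO minus wild-type) of the members (red), of all genes (rings) and of the other genes in the top 5% by level (triangles) as reported and under 11 other settings. The members lie between -0.38 and -0.22 in each setting, left of both comparison groups.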

How the data were processed

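RNA of sorted LT-HSCs was measured on 1 Agilent single-colour array per genotype on 1 slide. Per the file headers, the authors deposited scanner files holding for each spot the background-subtracted, detrended intensity, without normalization between arrays. Agilent Feature Extraction 11.5.1.1 is named in the submitters' processing notes. The deposited table of normalized log2 values for 35795 probes equals, within 0.01 for all its probes, the log2 intensity minus 1 constant per array (7.16 and 6.84).

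From the intensities, control spots and non-uniform or outlier spots (the scanner's marks) were dropped. Log2 signals were averaged per probe and reduced by the array's 75th percentile (7.16 and 6.85). Of 55662 probes, 31735 (57.0%) were named through symbol, older symbol or RefSeq accession. The brightest probe stood for a gene, genes that the scanner marked as well above background on either array entered, and a dim side was raised to its array's lowest signal so marked. Several genes were named by rule: extremes of difference and of level, members at least 1.5-fold apart or dim, the 5 widest probe ranges, stalk, 5S, X-linked and copied members, Rps6, Rps14, Rps19, Rps27a, and 3 at each end of related lists. Rpl4, Rpl6, Rpl23 and the start-site windows were chosen after values were seen. A few single genes that the rule names are not reported here. The members and lists were chosen with earlier results of these data known.

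Alternatives were quantile normalization, the median of probes, a loess (span 0.3), normexp with an offset of 50, the authors' values, a filter on both arrays, no filter with no floor, the mean or median of a gene's probes, outlier spots kept, and no paralogues. The calculations were tested on simulated data. The number of arrays limits the precision. Normexp was run in limma 3.58.1 (R 4.3.3), and all else in Python 3.11.15 with statsmodels 0.14.6, numpy 2.4.6 and pandas 2.3.3.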

Additional observations from a re-analysis of the deposited data

How the results depend on the processing

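The median difference of the members stayed below 0 in all 11 settings, from -0.38 with normexp to -0.22 with the loess, and the number lower lay between 68 and 73. Several of these settings could hardly move that median. The authors' values and the median of probes change each array by a constant. The filter on both arrays, no filter with no floor, and outlier spots kept left nearly all members as they were. In each of these the median was -0.28. Members at least 1.5-fold lower numbered 6 as reported and 10 with normexp. Members at least 1.5-fold higher numbered 2 as reported, 0 with normexp or without the paralogues, and 1 with the authors' values or with the filter on both arrays. With quantile normalization or the loess they numbered 3, and Rps15a differed by 0.60 and 0.61 there. Without the paralogues 4 members were higher instead of 8, because the copies were removed. The median level over the members, 6.37 on the wild-type array and 6.08 on the array labelled p38KO, was 5.89 and 5.52 with normexp. Averaging all probes per gene gave 5.50 and 5.17, and taking their median 5.88 and 5.52. Apart from the removal of the copies, the cause was not tested. For single named members, 283 values moved by less than the SD of a difference between spots and 25 by more. The 283 include values from the settings that could hardly move them. No paired analysis was possible because each genotype has 1 array, and for the same reason no replicate could be left out. Rpl39l, dim on the wild-type array, has only a lower bound.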

Other observations

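Genes named as ribosomal proteins that the naming rule leaves out were looked at after the members' values were seen. There were 13 such names, all well above background on both arrays. Of them, 9 were lower on the array labelled p38KO (beside 52.4% of all genes), with a median difference of -0.15. Fau, whose product is a ubiquitin-like part fused to a ribosomal protein, had levels of 8.40 on the wild-type array and 8.12 on the array labelled p38KO. Rps3a1 had 7.72 and 7.57. The 4 that were higher were the copies Rpl36al (2.73 and 3.56), Rpl22l1 (1.70 and 2.47) and Rpl7l1 (-2.77 and -2.40), and the pseudogene Rps15a-ps6 (0.40 and 0.95).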
